A study of Homo sapiens with 16 samples.

Results

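The replication-dependent histone cluster on chromosome 6 was followed in ATAC-seq peak lists of IMR-90 ER:Ras cells. Members are the accessible regions that overlap any of 3 intervals of the hg19 build, chr6:26010000-26290000, chr6:27095000-27120000 and chr6:27770000-27870000, which together span 405 kb. Overlapping peaks of all libraries with the same read layout were merged into regions. This gave 56 member regions of 153040 in the paired-end libraries (36, 4 and 16 in the 3 intervals) and 56 of 103322 in the single-end libraries (39, 4 and 13). They are numbered PE1 to PE56 and SE1 to SE56 along the chromosome.

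ATAC-seq marks open chromatin by the insertion of sequencing adapters by Tn5 transposase. IMR-90 cells are fibroblasts of human lung, and the ER:Ras derivative carries an oncogenic Ras fused to an oestrogen receptor. All 16 libraries come from this derivative, which carries ER:Ras in the proliferating group too. The 10 paired-end libraries (35 bp reads) were 2 of proliferating cells given a control siRNA and no tamoxifen (Pro), 4 of cells given a control siRNA and 100 nM 4-hydroxytamoxifen for 6 days, which induces senescence (Sen), 2 of tamoxifen-treated cells with siRNA against FOXF1/2, and 2 of tamoxifen-treated cells with a JUN-family knockdown. The title of the last pair names cJUN and JUND, and their treatment label also names JUNB. The 6 single-end libraries (75 bp reads) were 2 each of Sen, of tamoxifen-treated cells with siRNA against p300/CBP, and of tamoxifen-treated cells with siRNA against p65, a subunit of NF-kB. The 2 Pro libraries are labelled as senescent fibroblasts too, and were placed by their titles and by the absence of tamoxifen. How far each siRNA depleted its target is not visible in peak lists. The knockdowns of a layout share their Sen libraries. No label says whether replicates are separate cultures, so the spread between them may be technical.

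Replication-dependent histone genes encode the linker histone H1 and the core histones H2A, H2B, H3 and H4, which package newly made DNA. They are transcribed mainly in S phase, from short genes without introns, and many H2A and H2B genes are read in opposite directions from a shared promoter. Senescent cells have left the cell cycle for good. In the RefSeq gene table of GRCh38.p14, histone genes of chromosome 6 fall into an H2AC1 and H2BC1 pair followed by runs of 32 genes (H1-1 to H4C8), 5 genes (H2BC11 to H2AC12) and 16 genes (H2BC13 to H2BC17). The run of 32 holds 5 H1, 4 H2A, 8 H2B, 7 H3 and 8 H4 genes, and the only other protein-coding gene within it is HFE. The 3 larger runs have the same order as the 3 intervals. An annotation of the hg19 build was not used here, so no peak is assigned to a single gene, and every hg19 position below is that of a peak region.

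Promoters of these genes were read from RefSeq (GRCh38.p14) to show which letters they share. The table held 54 promoter sequences for 50 of the 55 histone genes. CCAAT, the box bound by NF-Y, stood in 47 of 54 (87.0%) against 34.6% of all 35116 promoters of 300 bases, counted on both strands. TATAAA, the core of the box that places transcription start, stood in 36 (66.7%, all promoters 11.5%). The octamer ATTTGCAT, known as the OCT1 element of H2B promoters, stood in 23 (42.6%, all promoters 1.77%), among them 13 of 17 H2B and 9 of 11 H2A promoters and no H1 or H4 promoter. Divergent H2A and H2B neighbours share sequence, so these counts are not independent. CCAAT was common in every class except H4, where 3 of 10 promoters held it. Of the targeted factors, AP-1, the forkhead factors and NF-kB were each given 1 motif, which is not every site they may bind. The AP-1 motif TGANTCA, where N is any base, was in 1 (1.85%, all promoters 7.71%), as TGATTCA in H3C8. The forkhead motif TGTTTAC was in 2 (3.70%, all promoters 3.42%), and the NF-kB motif in 0 (all promoters 0.558%). Both forkhead matches were in H2AC1 and H2BC1, the pair outside the 3 larger runs. The CRE motif TGACGTCA was in 8 (14.8%, all promoters 1.85%), and whether a targeted factor binds it was not tested. A match is a string of letters and not a bound site, and its absence from these windows says nothing about the factor.

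The 250 bases before the start of 1 gene of each histone class are printed to show these shared boxes, with H3C8 added as the promoter with TGANTCA. The capitals mark matches on either strand to the motifs named above, and each sequence runs 5′ to 3′ on the strand of its gene. In GRCh38.p14 they lie with H1-1 at chr6:26017788-26018037 (minus strand), H2AC4 at chr6:26033619-26033868 (minus strand), H2BC3 at chr6:26043714-26043963 (minus strand), H3C1 at chr6:26020201-26020450 (plus strand), H4C2 at chr6:26027284-26027533 (minus strand) and H3C8 at chr6:26271414-26271663 (minus strand). These coordinates were not used to place the hg19 peaks.
H1-1: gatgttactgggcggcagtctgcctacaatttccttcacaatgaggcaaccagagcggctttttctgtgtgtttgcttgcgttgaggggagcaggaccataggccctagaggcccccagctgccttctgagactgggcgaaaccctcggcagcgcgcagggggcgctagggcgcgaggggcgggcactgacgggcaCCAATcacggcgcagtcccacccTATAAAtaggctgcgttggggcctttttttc
H2AC4: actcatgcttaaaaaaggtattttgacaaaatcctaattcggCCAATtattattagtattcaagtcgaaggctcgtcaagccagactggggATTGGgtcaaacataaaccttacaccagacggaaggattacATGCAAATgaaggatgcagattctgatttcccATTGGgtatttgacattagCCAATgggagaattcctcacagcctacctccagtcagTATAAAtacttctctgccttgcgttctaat
H2BC3: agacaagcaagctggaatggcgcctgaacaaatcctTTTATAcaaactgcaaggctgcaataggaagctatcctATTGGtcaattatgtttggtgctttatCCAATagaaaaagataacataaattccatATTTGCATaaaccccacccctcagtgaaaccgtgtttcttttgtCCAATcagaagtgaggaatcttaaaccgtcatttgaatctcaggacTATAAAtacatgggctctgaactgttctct
H3C1: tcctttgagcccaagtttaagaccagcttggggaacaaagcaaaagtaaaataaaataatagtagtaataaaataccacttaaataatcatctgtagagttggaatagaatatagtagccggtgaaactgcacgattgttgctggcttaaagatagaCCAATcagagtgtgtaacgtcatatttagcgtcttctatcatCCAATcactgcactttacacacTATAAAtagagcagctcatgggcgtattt
H4C2: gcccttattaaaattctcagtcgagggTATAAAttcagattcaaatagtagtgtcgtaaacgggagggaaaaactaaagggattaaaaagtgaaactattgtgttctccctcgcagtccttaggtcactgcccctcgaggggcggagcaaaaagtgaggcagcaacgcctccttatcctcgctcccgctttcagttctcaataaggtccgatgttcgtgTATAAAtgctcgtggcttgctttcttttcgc
H3C8: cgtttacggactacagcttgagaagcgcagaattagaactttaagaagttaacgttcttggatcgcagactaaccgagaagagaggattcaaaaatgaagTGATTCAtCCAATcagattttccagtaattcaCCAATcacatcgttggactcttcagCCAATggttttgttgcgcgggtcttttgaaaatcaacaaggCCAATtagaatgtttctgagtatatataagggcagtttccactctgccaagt
The H1-1 promoter holds 1 CCAAT and 1 TATAAA close to the start. H2AC4 holds 4 CCAAT boxes and 1 octamer, and H2BC3 holds 3 and 1. H3C1 has 2 CCAAT boxes, and H4C2 has none and 2 TATAAA matches. H3C8 has 4 CCAAT boxes, 1 TGANTCA and no TATAAA.

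The level of a region was its highest summit pileup, the number of reads stacked at the summit, as a multiple of the genome-wide background coverage of the library. Background coverage was 1.74 to 3.08 reads for paired-end libraries and 0.195 to 0.475 for single-end ones. The lowest level a list could hold was therefore 4.58 to 6.31 for the former and 14.7 to 25.7 for the latter. These values are recovered from the deposited peaks. They describe summits and not all reads of a region. These floors hold where the local background is lowest, and a peak in a place of high local background must be higher to be listed. Group means are given ± SD.

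The histone cluster was open in every paired-end library, and most of its regions were constant. Of the 56 regions 40 (71.4%) had a peak in all 10 libraries, against 24.8% of all 153040 regions, and 5 (8.93%) had one in a single library, against 16.9%. The members were also wider, with a median of 956 bp (168 to 3068) against 482 bp, and the 40 constant ones had a median of 1424 bp against 838 bp. Regions per 100 kb were 12.9, 16.0 and 16.0 in the 3 intervals. The region with the highest minimum was PE13 (chr6:26123079-26124783), at 123 and 145 times background in Pro, 80.3, 99.2, 85.0 and 76.0 in Sen, 83.8 and 94.5 with siFOXF1/2 and 47.7 and 51.7 with JUN-family knockdown. PE38 (chr6:27099307-27101943) reached 136 in both Pro libraries, 78.9, 88.8, 73.6 and 66.6 in Sen, 100 in both siFOXF1/2 libraries and 35.1 and 41.3 with JUN-family knockdown. On this background scale both regions were highest in Pro and lowest in the JUN-family knockdown, with no overlap of those 2 groups with Sen.

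The other strong constant regions lay in all 3 intervals, and on the background scale each had its highest group mean in Pro and its lowest in the JUN-family knockdown. Knockdown levels were lower genome-wide on that scale. Scaled on the library medians, PE18 was higher in the knockdown than in every Sen library (log2 difference 0.33), and PE24 and PE36 had differences of 0.00. The lowest level over 10 libraries was 34.4 at PE47 (chr6:27804701-27806927), 34.1 at PE18 (chr6:26171966-26173687), 33.8 at PE40 (chr6:27113489-27115513), 31.5 at PE24 (chr6:26204296-26206632), 31.2 at PE25 (chr6:26216112-26217956) and 29.5 at PE36 (chr6:26284998-26286857). Each of these minima was in the first JUN-family knockdown library. Their Pro levels were 116 and 113 at PE47, 83.2 and 98.1 at PE18, 125 and 118 at PE40, 81.5 and 93.0 at PE24, 97.0 and 103 at PE25, and 85.5 and 94.5 at PE36. PE18 stood out for a narrow spread over the Sen libraries, at 58.6, 57.2, 53.3 and 54.2.

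**Figure D1:**
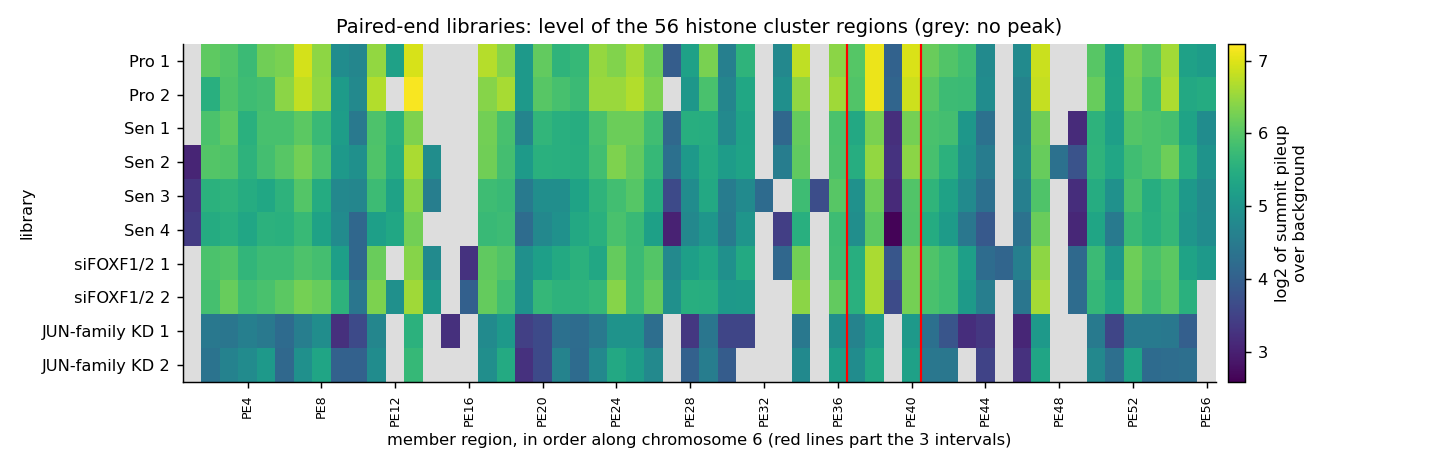
Level of the 56 paired-end histone cluster regions (columns, in order along chromosome 6) in the 10 libraries (rows), as log2 of the summit pileup over the genome-wide background; grey means that the list holds no peak. The Pro rows are the brightest, the JUN-family knockdown (KD) rows the darkest, and 40 of the 56 columns are filled in all 10 rows.

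The 16 regions that were not constant were mostly weak or narrow. Of these, 5 appeared in a single library each, among them PE15, PE32, PE35 and PE48. PE14 (chr6:26126114-26126563) was in Sen 2 and Sen 3 at 29.2 and 23.9 and in both siFOXF1/2 libraries at 27.9 and 34.3. PE1 (chr6:26010205-26010557) was held by Sen 2, 3 and 4 at 8.40, 9.81 and 10.5, and PE33 (chr6:26271199-26271819) by 6 libraries with a highest level of 29.8 in Pro 2. PE43 lacked a peak only in the second JUN-family knockdown library. The regions PE12, PE16, PE27, PE39, PE49 and PE56, are described with the comparisons.

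The number of peaks in the intervals was similar across the paired-end libraries, between 52 and 67, but the DNA they covered was not. The peaks covered 41.5 and 44.0 kb in Pro, 53.9, 52.9, 49.5 and 38.3 kb in Sen, 51.9 and 47.7 kb with siFOXF1/2, and 28.6 and 23.1 kb with JUN-family knockdown. The JUN-family knockdown libraries lay below every other library, with a mean of 25.9 ± 3.89 kb (n = 2) against 48.7 ± 7.15 kb (n = 4) in Sen. Their median peak width in the cluster was 426 ± 43.1 bp against 720 ± 133 bp. The whole lists moved likewise, from 41.5 to 56.9 Mb in Sen to 26.2 and 24.0 Mb. The cluster held 0.109% and 0.0963% of all covered bases with JUN-family knockdown and 0.0923% to 0.103% in Sen, which overlap. In Pro that share was 0.141% and 0.135%, above all 4 Sen libraries, while the whole Pro lists covered 29.5 and 32.6 Mb and the covered DNA of the cluster itself overlapped with Sen.

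Senescent cells were compared with proliferating cells to see which histone regions differ once the cells have left the cycle. Of 45 member regions in both Pro libraries 0 were without a peak in all 4 Sen libraries (closed). This count is near the share over all such regions, of which 3.96% were closed. Of 47 in all Sen libraries 1 was absent from both Pro libraries (opened), against 26.1% of all such regions. With lists of equal length 2 members were closed and 0 opened. The levels were lower in Sen at most members. Among the 44 regions with a peak in all 6 libraries, 34 (77.3%) had every Sen level below both Pro levels, against 42.0% of all 49449 such regions, and 0 had every Sen level above them, against 23.1%. For this count each level was divided by the library's median over those 49449 regions. The median log2 difference of the members was −0.57 (range −1.01 to 0.10), and that of all regions −0.18. Of the 44 members 43 lay below 0, as did 61.2% of all regions. In bulk libraries a lower level in all cells and an open state in fewer cells cannot be told apart. The other 12 members were the opened one, 8 with a peak in part of a group and 3 without a peak in Pro or Sen.

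Width and constancy set the members apart, and constant or wide regions were more often lower in Sen genome-wide too. Whether width or constancy bears on the difference at the members was not tested. Among constant regions 30 of 40 members were lower without overlap, against 47.8% of all constant regions. Among regions of at least 1000 bp the counts were 22 of 27 members and 57.6% of all. The members of that width had a median difference of −0.61 against −0.40 for all regions of that width, and the narrower members −0.42 against −0.09. The median difference was −0.56 over the 27 kept regions of the first interval, −0.83 over the 4 of the second and −0.42 over the 13 of the third. With 2 against 4 libraries the smallest two-sided exact permutation p is 0.133, so that test cannot reach 0.05 for a single region. No other test was run on these values, and the counts are descriptions.

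The lowest relative levels were at 4 regions of the first, second and last interval. PE39 (chr6:27106931-27108132) had levels of 16.6 and 17.2 in Pro and of 9.30, 9.60, 8.83 and 6.23 in Sen, a log2 difference of −1.01 (SE 0.11). PE43 (chr6:27782588-27783248) had 56.2 and 54.1 in Pro and 33.1, 31.2, 28.1 and 21.4 in Sen (log2 difference −0.97, SE 0.11). The Pro and Sen levels of both regions lay well apart. PE8 (chr6:26055076-26057209) had 87.2 and 89.5 in Pro and 53.0, 60.4, 43.2 and 38.2 in Sen (−0.88, SE 0.10). PE7 (chr6:26043461-26045923) had 122 and 111 in Pro and 66.5, 75.6, 63.1 and 52.2 in Sen (−0.87, SE 0.10). Sen 4 was the lowest of the 4 senescent libraries at each of these regions.

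Strong regions outside those 4 were lower too. The log2 difference was −0.83 at PE38, −0.78 at PE40, −0.72 at PE47, −0.70 at PE18, −0.66 at PE13, −0.64 at PE25, −0.58 at PE36 and −0.39 at PE24, and none of these 8 overlapped. The regions whose groups overlapped after scaling were PE2, PE3, PE9, PE10, PE28, PE30, PE42, PE46, PE53 and PE55. PE30 (chr6:26249911-26251177) had the only positive difference, at 24.1 and 25.8 in Pro and 27.2, 35.6, 23.2 and 22.6 in Sen. The opened region, PE49 (chr6:27815365-27816205), was weak: its Sen levels were 8.95, 13.6, 9.16 and 8.57, and the lowest of them was 1.36 times the highest detection floor in Pro.

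**Figure D2:**
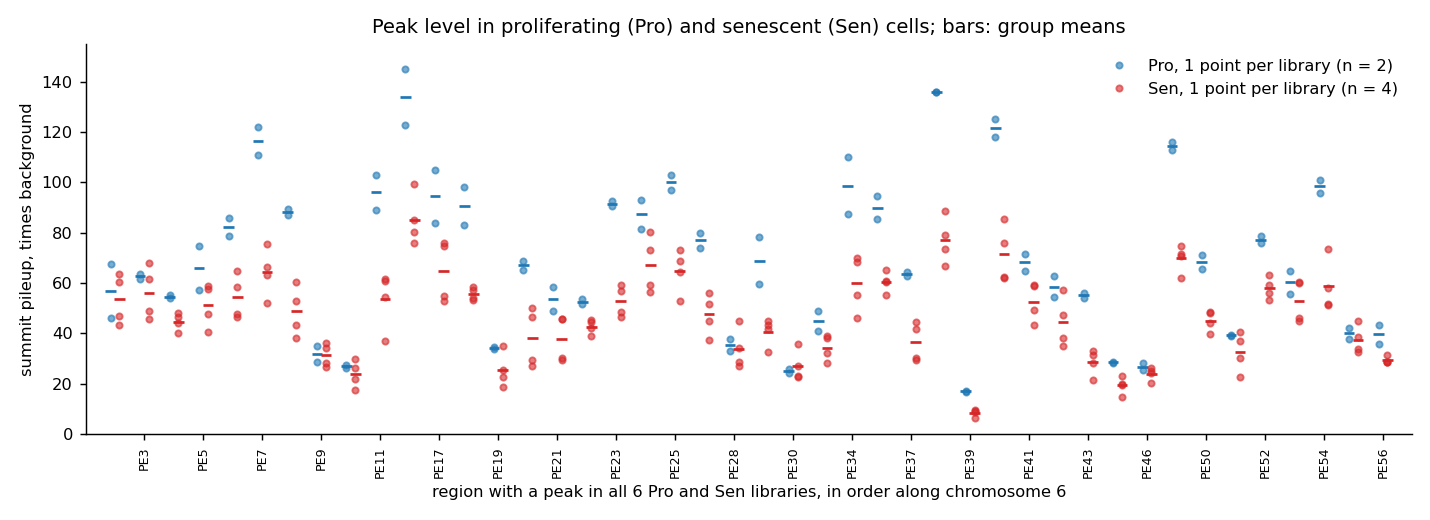
Level of the 44 regions with a peak in all 6 Pro and Sen libraries, as summit pileup over background on a linear axis; each point is a library and each bar a group mean. The Pro points lie above all Sen points at most regions, and the mean is higher in Sen at PE30 alone.

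The Sen libraries fall into 2 sets by the style of the peak names in the lists: Sen 1 and 2 share theirs with Pro and siFOXF1/2, Sen 3 and 4 with the JUN-family knockdown. Within the first set the Sen-to-Pro median was −0.50, with 36 of 45 members lower without overlap against 50.4% of all regions and 1 higher against 27.4%. With Sen 3 and 4 it was −0.64, with 39 of 44 lower against 49.1%. The deposited fold, which divides the summit by the local background of the same place, gave a smaller difference. Its median was −0.11 against −0.05 for all regions, with 15 of 44 members lower (all regions 29.0%) and 2 higher (21.8%).

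The local background around the members differed between the groups as well. MACS2 takes it from reads around the summit, so it includes those of the region and its neighbours. Over the 44 regions its median was 6.31 and 6.68 times the genome-wide background in Pro and 5.75, 5.76, 4.23 and 3.58 in Sen, while the medians over all regions ran from 2.47 to 3.27. It was lower without overlap at 17 of 44 members (22.7% of all regions) and higher at 0 (32.6%), with a median difference of −0.28 against 0.06. This depended on the set of libraries. With Sen 1 and 2 alone the median was −0.03, and 18 of 45 members were lower (25.2%), whereas with Sen 3 and 4 it was −0.56, and 42 of 44 were lower (40.7%).

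**Figure D3:**
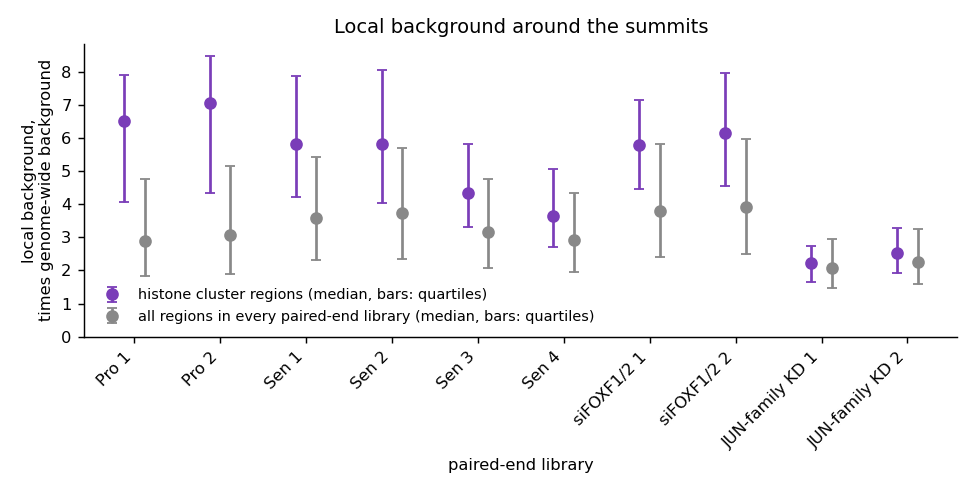
Median local background around the summits (points, with quartiles as bars) as a multiple of the genome-wide background, for the 40 constant histone cluster regions and for all 37957 regions with a peak in all 10 paired-end libraries. The members lie above all regions in Pro, Sen and siFOXF1/2 and close to them with JUN-family knockdown.

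Senescent cells given siRNA against FOXF1/2, forkhead factors of lung mesenchyme, were compared with Sen next. Of 47 member regions in all Sen libraries 0 were closed (8.10% of all such regions), and of 47 in both siFOXF1/2 libraries 1 was opened (9.70%). Among 45 regions with a peak in all 6 libraries 7 (15.6%) were lower without overlap, against 21.6% of all 65257 regions, and 5 (11.1%) were higher, against 21.2%. The median log2 difference was −0.06 (range −0.56 to 0.78), near the 0.00 of all regions. These counts are near or below the background, and they depend on the Sen libraries used and on the scale. With Sen 1 and 2 alone, whose peak names share the style of siFOXF1/2, 23 of 45 members were lower (28.9% of all regions) and 4 higher (29.3%). The median was then −0.16 against 0.01. With Sen 3 and 4 alone 9 were lower (37.3%) and 13 higher (31.7%), with a median of 0.00 against −0.03. With all Sen libraries but without the scaling on library medians, all regions shifted by 0.28 and the members had a median of 0.22. On that scale 0 of 45 were lower (8.77% of all regions) and 16 were higher (46.1%).

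The opened region was PE16 (chr6:26141616-26141947), with levels of 9.57 and 16.1 with siFOXF1/2 and no peak in any other paired-end library. The lower of them was 1.84 times the highest floor in Sen. The 4 largest positive differences without overlap were at PE27, PE49, PE39 and PE11. PE27 (chr6:26233062-26233610) had 17.9, 19.6, 12.4 and 8.18 in Sen and 27.2 and 30.1 with siFOXF1/2 (log2 difference 0.78, SE 0.24). PE49 had 18.0 and 18.7 with siFOXF1/2 against at most 13.6 in Sen (0.61, SE 0.11). PE39 had 14.2 and 12.5 with siFOXF1/2 (0.39, SE 0.16), between its Sen and Pro levels. PE11 (chr6:26103488-26104781) had 61.0, 61.6, 54.3 and 37.0 in Sen and 71.5 and 79.9 with siFOXF1/2 (0.25, SE 0.14). At these 4 regions the groups did not overlap on either scale.

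The lower regions were called on the scaled levels alone. PE10 (chr6:26087560-26089202) had 22.0, 30.0, 26.2 and 17.5 in Sen and 17.6 and 21.3 with siFOXF1/2 (scaled log2 difference −0.56, SE 0.17; unscaled −0.28). PE25 had 73.0, 68.8, 64.4 and 53.0 in Sen and 53.6 and 54.5 with siFOXF1/2 (scaled −0.53, unscaled −0.25). PE23 (chr6:26199131-26200018) had a scaled difference of −0.47 and an unscaled one of −0.19, and PE46 (chr6:27798200-27799717) of −0.36 and −0.08. The unscaled levels of the 2 groups overlapped at all 4. PE22 (chr6:26197227-26197893) was lower without overlap after scaling (−0.12) and higher without overlap before it. The median of the local background in the 45 regions was 5.15 and 5.65 with siFOXF1/2, within the Sen range of 3.41 to 5.59 or just above it. Its median log2 difference was 0.24 against 0.18 for all regions, and depended on the set of libraries. With Sen 1 and 2 alone it was −0.02 against 0.07, and with Sen 3 and 4 alone 0.50 against 0.29.

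The JUN-family knockdown is directed at subunits of AP-1, a factor that responds to Ras signalling. It left 40 of the 47 Sen regions with a peak in both knockdown libraries. Of the 47 regions 5 (10.6%) were closed, against 31.6% of all 76382 regions in all Sen libraries, and 0 of 40 were opened, against 5.91%. Peak strength bears on this share: over 10 bins of the lowest −log10 q in Sen the percentage of all regions closed ran from 71.3% in the weakest to 0.157% in the strongest. The weakest bin held 3 members, all closed, and the next 1, also closed. The only other closed member lay in the 4th bin, where 1 of 5 members was closed and 44.4% of all regions. Of the 36 members in the stronger bins 0 were closed.

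PE12 (chr6:26121406-26121779) was the strongest closed member. It had 47.5, 44.8, 38.3 and 40.9 times background in the 4 Sen libraries (42.9 ± 4.1, n = 4) and no peak in either JUN-family knockdown library. The lowest Sen level was 6.41 times the highest knockdown floor, or 4.01 times after scaling on the library medians. These ratios are not bounds on the fold lost, because the local background was high here: the deposited fold of PE12 was 3.78 to 5.48 in Sen, and its −log10 q 29.4 to 41.4. It was not constant elsewhere, with a peak in Pro 1 at 37.9 and siFOXF1/2 2 at 30.1 but none in Pro 2 or siFOXF1/2 1. PE56 (chr6:27862980-27863539) had 28.6, 31.2, 28.5 and 28.8 in Sen (29.3 ± 1.3, n = 4), with ratios to the floor of 4.77 and, scaled, 2.78. Its deposited fold was 3.03 to 4.61 and its −log10 q 15.1 to 24.8, so the same limit applies. It was held by both Pro libraries, at 35.6 and 43.5, and by siFOXF1/2 1 at 33.7. PE27, PE49 and PE39 had Sen means of 14.5 ± 5.22, 10.1 ± 2.37 and 8.49 ± 1.54 (n = 4). Their scaled ratios were 0.858, 0.870 and 0.653, under 1, so a level unchanged relative to other regions could also have been missed by the knockdown lists.

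In the 40 regions kept, levels were lower in the knockdown on the background scale, as they were genome-wide. The median log2 difference was −1.02, with 39 of 40 members lower without overlap and 0 higher, against −0.79, 83.8% and 2.05% for all 43819 regions. Scaling on the library medians removes this shift. On that scale the members had a median of −0.15 (range −0.70 to 0.46) against 0.09 for all regions, 16 (40.0%) were lower without overlap against 20.2%, and 4 (10.0%) higher against 31.5%. The deposited fold had the opposite sign, with a median of 0.28 against 0.07 for all regions, 4 members lower (19.8% of all regions) and 24 higher (32.7%).

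The lower regions on the scaled measure included members of the first and last intervals. PE20 (chr6:26188765-26189732) had 49.9, 46.4, 29.4 and 26.9 in Sen and 12.3 and 12.4 in the knockdown (scaled log2 difference −0.70, SE 0.22). PE6 (chr6:26033166-26034460) had 58.6, 64.8, 47.8 and 46.4 in Sen and 18.5 and 17.9 in the knockdown (−0.69, SE 0.17). PE54 (chr6:27860746-27861481) had 58.2, 73.6, 51.7 and 51.4 in Sen and 21.8 and 18.9 in the knockdown (−0.64, SE 0.24). These levels are unscaled, on which scale the knockdown is lower genome-wide, and at all 3 regions the groups did not overlap on either scale. PE46 had 25.1, 26.4, 24.2 and 20.3 in Sen and 8.44 and 9.45 in the knockdown (−0.55, SE 0.07). The regions higher on the scaled measure were PE37 (chr6:27094811-27095386; 0.46), PE8 (0.37), PE18 (0.33) and PE4 (chr6:26025649-26027709; 0.10), whose unscaled differences were all negative, at −0.41, −0.50, −0.55 and −0.77. PE37, for example, had 41.7, 44.4, 30.4 and 29.6 in Sen and 25.3 and 28.8 in the knockdown.

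The local background of all 40 members was lower in both knockdown libraries than in every Sen library, as it was at 78.5% of all regions. Its median was 5.81, 5.83, 4.34 and 3.65 times the genome-wide background in Sen and 2.21 and 2.52 in the knockdown. The median log2 difference was −1.10 against −0.58 for all regions. Within the set of Sen 3 and 4 it was −0.81 against −0.44, with 40 of 40 lower against 79.0%. The summit difference within that set was −0.09 against 0.07, with 18 of 40 members lower (26.3% of all regions) and 6 higher (40.2%). With Sen 1 and 2 in their place it was −0.27 against 0.10, with 26 lower (28.1%).

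**Figure D4:**
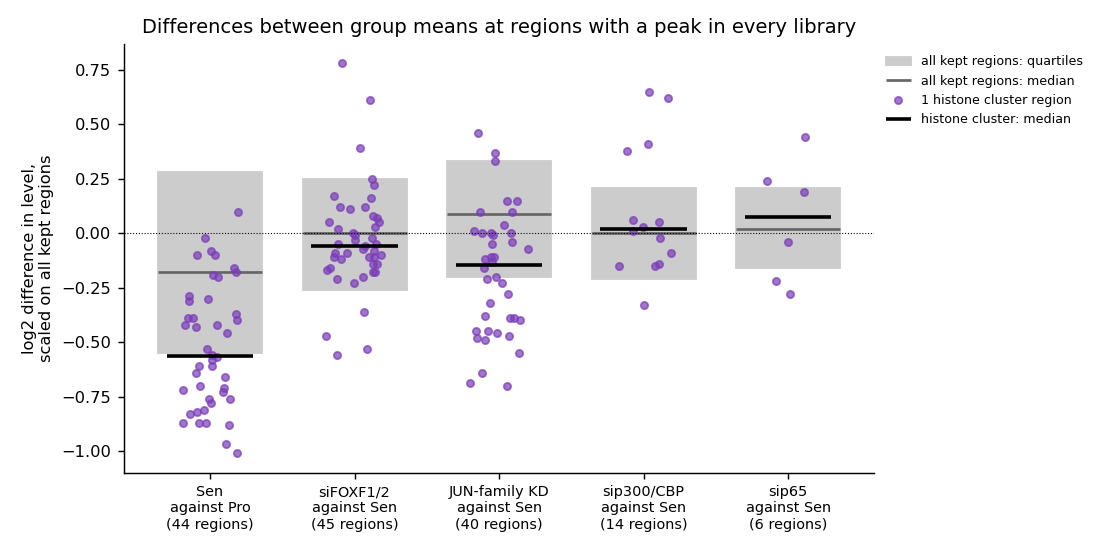
Log2 difference in level between group means at each histone cluster region with a peak in all libraries of a comparison (points), with their median (black) and the quartiles and median of all such regions (grey), scaled on the library medians. The members lie mostly below 0 for Sen against Pro (median −0.57), and their medians lie between −0.15 and 0.07 in the 4 knockdown comparisons.

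The single-end lists showed only the strongest part of the cluster. They held 29 and 40 peaks in Sen, 37 and 23 with sip300/CBP, and 25 and 8 with sip65, covering 1.11 to 7.79 kb. Of the 56 single-end regions 54 overlapped a paired-end member, 22 (39.3%) were in 1 library (32.7% of all regions) and 5 (8.93%) in all 6 (12.0%). Of the 40 constant paired-end regions 36 overlapped a single-end region, as did 3 of the 16 others. The 5 regions in all libraries were SE41 (chr6:27100481-27100857), SE51 (chr6:27840066-27840274), SE20 (chr6:26172104-26172336), SE22 (chr6:26189200-26189469) and SE26 (chr6:26204640-26205013). SE41, which lies within PE38, was the strongest, at 69.4 and 48.4 in Sen, 64.3 and 51.1 with sip300/CBP and 67.0 and 61.6 with sip65, values that overlap between groups.

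**Figure D5:**
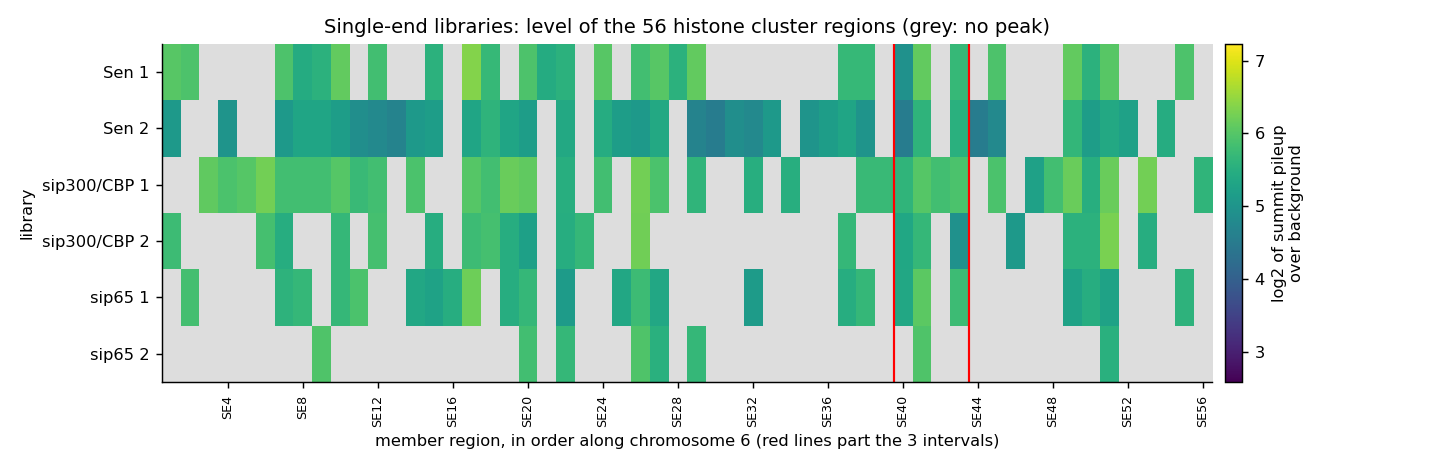
Level of the 56 single-end histone cluster regions (columns) in the 6 libraries (rows), as log2 of the summit pileup over background; grey means no peak. Only 5 columns are filled in all 6 rows, and the second sip65 library holds 8 peaks.

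The siRNA against p300/CBP, acetyltransferases that act as coactivators, was compared with Sen over these lists. Of 24 regions in both Sen libraries 0 were closed (17.4% of all such regions), and of 17 in both sip300/CBP libraries 2 (11.8%) were opened (13.1%). Among 14 regions with a peak in all 4 libraries 2 were lower without overlap (14.3%, all regions 20.8%) and 3 higher (21.4%, all regions 21.0%), with a median log2 difference of 0.02. The closed share is below that of all regions, and the shares opened and higher are close to it. Over 10 bins of the lowest −log10 q in Sen, the percentage of all regions closed ran from 37.0% in the weakest to 1.30% in the strongest. Bins 8 to 10 held 0 of the 24 members, so the share over all regions includes stronger regions than any of these members. SE6 (chr6:26032384-26032530) and SE53 (chr6:27858572-27858713) were opened, with 75.7 and 57.9 and with 75.7 and 44.3 times background, and their lower levels were 2.67 and 2.04 times the highest Sen floor. Both overlap constant paired-end regions (PE5 and PE53) that had peaks in all 4 paired-end Sen libraries, at the lower detection floor of those lists.

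The higher regions were SE26 with 56.4 and 33.7 in Sen and 75.7 and 74.9 with sip300/CBP (log2 difference 0.65), SE40 (chr6:27094940-27095157) with 30.4 and 23.1 in Sen and 49.2 and 40.9 with sip300/CBP (0.62), and SE51 with 65.1 and 42.1 in Sen and 71.9 and 78.3 with sip300/CBP (0.38). At these 3 regions the unscaled levels did not overlap either. SE49 (chr6:27806065-27806372) and SE41 were lower after scaling, both by a log2 difference of −0.15, and overlapped before it. With 2 against 2 libraries the smallest two-sided exact permutation p is 0.333.

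For p65 the comparison rests on few peaks, since the second sip65 list held 17880 peaks in all and 8 in the cluster. Of 24 regions in both Sen libraries 5 (20.8%) were closed, against 29.6% of all such regions, and 0 of 6 were opened (1.53%). The 24 members lay in the same strength bins as for sip300/CBP. Over those bins the percentage of all regions closed ran from 55.0% in the weakest to 2.71% in the strongest. The closed regions were SE1 (chr6:26017912-26018047), SE12 (chr6:26066276-26066474), SE18 (chr6:26156467-26156652), SE24 (chr6:26197510-26197663) and SE45 (chr6:27777745-27777928). Their lowest Sen levels were 33.7, 27.4, 48.4, 44.2 and 27.4, which is 1.31, 1.07, 1.89, 1.72 and 1.07 times the highest sip65 floor. A level below the floor could not be seen, and the floor is that of places with the lowest local background. Of the 6 regions with a peak in all 4 libraries 2 were lower (33.3%, all regions 17.6%) and 3 higher (50.0%, all regions 20.8%), with a median of 0.07. The lower ones were SE51 (−0.28) and SE27 (chr6:26216843-26217136; −0.22), and the higher ones SE26 (0.44), SE20 (0.24) and SE41 (0.19). On the unscaled levels 0 of the 6 were lower (8.84% of all regions) and 0 higher (10.6%).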

How the data were processed

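Cells were profiled by ATAC-seq with a commercial kit on an Illumina NextSeq, per the labels' protocols. The submitters' processing notes name Bowtie2 2.3.4.1, SAMtools 1.9, deepTools 3.1.1, MACS2 2.1.1 and hg19. How reads were shifted, filtered for duplicates and called is not given in the sources used here. Peak names of single-end lists alone carry a tag for removed duplicates. The authors deposited a narrowPeak list for every library and none for pooled replicates. A deposited list gives, for each peak, a fold ratio of the summit over the local background, −log10 of p and q, a score (not used) and the summit position. No peak with −log10 q under 4 is listed.

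Peaks on chromosomes 1 to 22 and X were merged per layout at 1 bp overlap. The intervals come from a rule that names the HIST1 genes. The intervals, gene list and motifs were chosen with earlier results of these data known. Summit pileup, as a whole number, and local background were solved from the fold, (pileup + 1) / (background + 1), and the Poisson p, and were whole to within 0.002 in −log10 p, a tolerance widened in proportion above a −log10 p of 10, for every peak. Genome-wide background was set at percentile 1 of the local values. The detection floor is the smallest pileup at the lowest listed p, and a ratio to the floor divides the lowest level among libraries with a peak by the highest floor among those without. It is no bound on a fold where the local background is high. The floors cover counting error only, and read totals are not known.

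Groups were compared over libraries without a test, by the count of regions whose groups did not overlap, beside the same share over all regions. Log2 differences are between group means of log2 levels, minus each library's median over the regions kept. Standard errors are over libraries. All calculations were made on the whole lists. Regions named are the 8 with the highest minimum level in all libraries, every closed or opened member, and the 4 largest differences without overlap in each direction; other regions were named after their values were seen. Some member regions enter the counts but are not reported singly here. The scripts were tested on simulated data. Python 3.11.15, numpy 2.4.6, pandas 2.3.3, scipy 1.17.1 and matplotlib 3.10.9 were used.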

Additional observations from a re-analysis of the deposited data

Results flagged for a closer look

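In the 4 paired-end Sen libraries, 50 values were checked for a library far from the rest, a check that picks out about 1 in 20 by chance. It picked out 2 regions, and at both Sen 4 was the low library. PE11 had levels of 61.0, 61.6, 54.3 and 37.0 in Sen 1 to 4, and after scaling on the library medians the gap between Sen 4 and the nearest library was 0.902 of the whole range. PE39 had 9.30, 9.60, 8.83 and 6.23, with a scaled gap of 0.894 of the range. Without Sen 4 the median difference of Sen against Pro over all 44 kept regions was −0.50.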

How the results depend on the processing

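Of 256 alternative values for 25 reported ones, 179 stayed close, 72 moved further and 5 changed sign. For Sen against Pro the median log2 difference stayed between −0.60 and −0.50 with any 1 library left out, the lower count between 34 and 39, the higher count between 0 and 1 (1 also with Sen 1 and 2 only) and the opened count between 1 and 3 (2 with Sen 3 and 4 only). The deposited fold gave −0.11, 15 lower and 2 higher, and lists of equal length 2 closed and 0 opened. For siFOXF1/2, background scaling gave 0.22, 0 lower (8.77% of all regions) and 16 higher (46.1%), and the deposited fold 3 higher (15.8%). Sen 1 and 2 alone gave 23 lower (28.9% of all regions), and Sen 3 and 4 alone 13 higher (31.7%) and 1 closed. A −log10 q of at least 20, a minimum chosen after seeing the data, gave 1 closed, and lists of equal length 0 opened. Leaving out 1 library gave medians of −0.11 to 0.02 (0.02 without siFOXF1/2 1), 8 to 15 lower (15 without siFOXF1/2 2), 5 to 10 higher, 0 to 1 closed and 1 to 2 opened. For JUN-family knockdown, background scaling gave −1.02, 39 lower and 0 higher, the deposited fold 0.28, 4 lower and 24 higher, and Sen 1 and 2 alone 26 lower. The closed count was 0 with lists of equal length, 8 at a −log10 q of at least 20 and 12 when peaks had to cover 50% of a region. Leaving out 1 library gave 3 to 7 higher (7 without knockdown replicate 1), 16 to 22 lower and 0 to 1 opened.

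For sip300/CBP, background scaling gave 0.16, 0 lower and 5 higher, the deposited fold −0.08, lists of equal length 1 closed and coverage of 50% 2 closed. Leaving out 1 library gave medians of −0.03 (without Sen 2) to 0.17, 4 to 5 lower, 4 to 9 higher, 3 to 10 closed and 2 to 10 opened. For sip65, background scaling gave 0.03, 0 lower and 0 higher, the deposited fold 1 lower, lists of equal length 0 closed and 2 opened with no region kept for a level, and coverage of 50% 9 closed. Leaving out 1 library gave medians of 0.00 to 0.28, 2 to 3 lower, 3 to 11 higher (11 without sip65 2), 7 to 16 closed (16 without sip65 1) and 0 to 1 opened. The causes were not tested. With 2 libraries a group, leaving 1 out makes both rules easier to meet, which raises these counts by construction. Same-numbered libraries deviated together little (correlations of −0.07 to 0.15). With so few libraries a group, these correlations cannot show whether same-numbered libraries were handled as pairs. With a replicate block the medians were −0.49, −0.14, −0.28, 0.02 and 0.07 for Sen, siFOXF1/2, JUN-family, sip300/CBP and sip65. Single-end depth limits those lists to regions of at least 14.7 times background.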
